A study of Mus musculus with 19 samples.

Results

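Collagens and other extracellular matrix genes were examined in cultured mouse pancreatic islets. The set holds the 171 probes of 99 genes, of 41174 probes on the array, whose gene name begins with Col, Lama, Lamb, Lamc, Mmp, Timp or Adamts and a digit, or is Fn1, Lum, Dcn, Bgn, Fbn1, Lox, Sparc, Postn, Vim or Thy1. The rule for membership uses names alone, but it was chosen with earlier results of these data known. A test was possible for 121 of these probes (86 genes, 70.8% of the probes, against 71.2% of all probes), those well above background in at least 4 mice. Every member of the fibrillar, glycoprotein, proteoglycan and Timp groups has a tested probe. The genes without one are Adamts13, Adamts19, Adamts8, Col4a5, Col10a1, Col12a1, Col17a1, Col23a1, Lama1, Lamb3, Mmp8, Mmp20 and Mmp25.

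Islets of single mice, 12 weeks old, non-diabetic and of the inbred strains C57BL/6 (B6) and C57BLKS/J (BLKS, which carries a mainly B6 genome with segments of DBA origin and is prone to diabetes when obese), were measured on 20 Agilent 2-colour arrays. After 48 h in medium with 11 mM glucose they spent 24 h in 5 mM glucose (low) or 20 mM glucose (high). The groups hold 5 B6 and 5 BLKS mice in low glucose and 5 B6 and 4 BLKS mice in high glucose, and the labels give no transgene or drug for any mouse. RNA came from whole islets, which hold endothelial, stromal and neural cells and remnants of exocrine tissue beside the endocrine cells.

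The matrix around and within islets has layers with distinct builders. Fibrillar collagens are assembled by fibroblasts and stellate cells as triple helices that are hydroxylated inside the cell, trimmed outside it and crosslinked by lysyl oxidase. Islet endothelial cells lay down most of the basement membrane, a sheet of type IV collagen and laminin trimers on which beta cells rest. Metalloproteinases of the Mmp and Adamts families cut these proteins, and the Timp proteins block the Mmp enzymes.

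Promoter windows of 5 member genes are shown first. All 5 gave differences below 0 between the strains in high glucose (BLKS minus B6), but that of Col4a2 did not pass the test described below. RefSeq windows (GRCm38.p6, 250 bases before to 50 bases after a transcript start) were at hand for 67 of the 99 genes. The chosen windows belong to Col1a2 (chr6:4505368-4505667, + strand), one of the 2 chains of type I collagen, to Postn (chr3:54360857-54361156, + strand), to Timp1 (chrX:20869916-20870215, + strand), and to the type IV chains Col4a1 (chr8:11312777-11313076, - strand) and Col4a2 (chr8:11312555-11312854, + strand). Each is written 5′ to 3′ on its gene's strand, and capitals mark matches on either strand to the letters of the TATA box (TATAAA), of the CCAAT box, of the GC box (GGGCGG) and of the site for AP-1 factors (TGAGTCA).
Col1a2: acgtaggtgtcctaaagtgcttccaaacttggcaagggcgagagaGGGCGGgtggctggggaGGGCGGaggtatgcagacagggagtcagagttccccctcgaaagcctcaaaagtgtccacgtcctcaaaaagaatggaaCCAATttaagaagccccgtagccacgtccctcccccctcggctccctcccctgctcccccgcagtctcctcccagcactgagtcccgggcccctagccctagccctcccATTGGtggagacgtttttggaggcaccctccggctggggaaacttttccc
Postn: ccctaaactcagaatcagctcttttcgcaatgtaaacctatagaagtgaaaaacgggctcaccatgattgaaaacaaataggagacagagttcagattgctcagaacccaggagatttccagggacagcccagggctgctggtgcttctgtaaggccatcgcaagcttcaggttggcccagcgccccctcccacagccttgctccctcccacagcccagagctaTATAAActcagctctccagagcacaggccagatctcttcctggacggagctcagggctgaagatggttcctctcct
Timp1: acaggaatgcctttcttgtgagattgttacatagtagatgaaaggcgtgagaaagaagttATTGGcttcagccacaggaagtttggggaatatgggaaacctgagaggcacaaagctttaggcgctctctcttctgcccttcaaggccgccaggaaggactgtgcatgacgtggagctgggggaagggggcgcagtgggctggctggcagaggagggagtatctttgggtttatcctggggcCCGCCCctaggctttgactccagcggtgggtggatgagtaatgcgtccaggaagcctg
Col4a1: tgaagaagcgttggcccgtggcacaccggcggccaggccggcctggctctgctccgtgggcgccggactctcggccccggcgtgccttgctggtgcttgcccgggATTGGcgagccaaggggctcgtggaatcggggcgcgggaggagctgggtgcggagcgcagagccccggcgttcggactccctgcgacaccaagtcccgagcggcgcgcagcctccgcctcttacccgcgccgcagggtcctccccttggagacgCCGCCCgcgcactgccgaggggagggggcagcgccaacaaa
Col4a2: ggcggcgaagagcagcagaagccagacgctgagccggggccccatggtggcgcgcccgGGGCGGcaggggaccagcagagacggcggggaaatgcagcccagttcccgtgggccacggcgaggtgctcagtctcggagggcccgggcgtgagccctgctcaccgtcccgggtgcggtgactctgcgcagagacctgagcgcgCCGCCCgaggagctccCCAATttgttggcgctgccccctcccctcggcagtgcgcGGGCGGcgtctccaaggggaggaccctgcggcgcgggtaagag
The Col4a1 and Col4a2 windows lie on opposite strands and share 78 bases, since this pair of genes is read head to head from one stretch of DNA. The Col1a2 window holds 2 matches to GGGCGG and 2 to CCAAT, and the Postn window holds 1 to TATAAA. Postn has a second RefSeq window (chr3:54359017-54359316, + strand) with 0 matches to TATAAA and 1 to CCAAT; the one with TATAAA is printed. Matches to TATAAA were found in 22.7% of the 75 windows of member genes and in 13.6% of all 32851 windows. GGGCGG was found in 54.7% and 35.7%, CCAAT in 30.7% and 37.4%, and TGAGTCA in 9.33% and 5.2%, respectively. In the 20 windows of genes lower in BLKS in high glucose the shares were 20% (TATAAA), 55% (GGGCGG), 40% (CCAAT) and 5% (TGAGTCA). These shares describe letters in a window and say nothing of which factor binds there.

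Each mouse was labelled with both dyes, and its 2 dyes were averaged. All values are on the log2 scale of the scanner's processed signal, and the middle probe signal of an array was 75 to 103, against 50.8 to 60.9 for its negative controls. No background was subtracted, so the fold of a dim probe is smaller than the change in its RNA. Tested members had mean log2 levels of 5.99 to 11.05 with a median of 6.80 (6.96 over all 29330 tested probes), and 69 lay under 7. A pair of low-glucose libraries went against their labels. On a scale set by the high-glucose mice at 102 strain-marking probes outside the set, with 0 for B6 and 1 for BLKS, 0.986 was found for the library labelled B6 low glucose 4 and -0.031 for BLKS low glucose 5 as labelled, whereas the other low-glucose B6 mice lay between -0.0467 and 0.0364 and the other low-glucose BLKS mice between 0.923 and 1. Both were kept as labelled, and comparisons that use low glucose are given with and without both. Islet endocrine markers were strong in every group (summed signals of 496300 to 607700), and none of their 11 tested probes passed the test between strains in high glucose. Each channel held 9 to 28 saturated spots, and a saturated probe can hide a difference. Whether these markers were saturated is not given here.

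In high glucose, more matrix probes were lower than higher in BLKS islets compared with B6 islets. The test (limma with Benjamini-Hochberg adjustment over all tested probes, threshold 0.05) called 37 of the 121 member probes, 30.6%, against 11.1% of all tested probes. Of these, 35 probes of 28 genes were lower in BLKS and 2 probes of 2 genes were higher. Over all probes the directions were far more even, with 6.13% lower and 4.98% higher. The median difference of the members was -0.12, beside 0.01 over all tested probes, and 86 of the 121 differences were below 0. The excess of calls over all probes rested largely on 1 mouse: without BLKS high glucose 3, 11 members were called, 9.09%, against 7.97% of all tested probes. The median difference of the members was then -0.09, beside 0.01 over all tested probes.

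**Figure D1:**
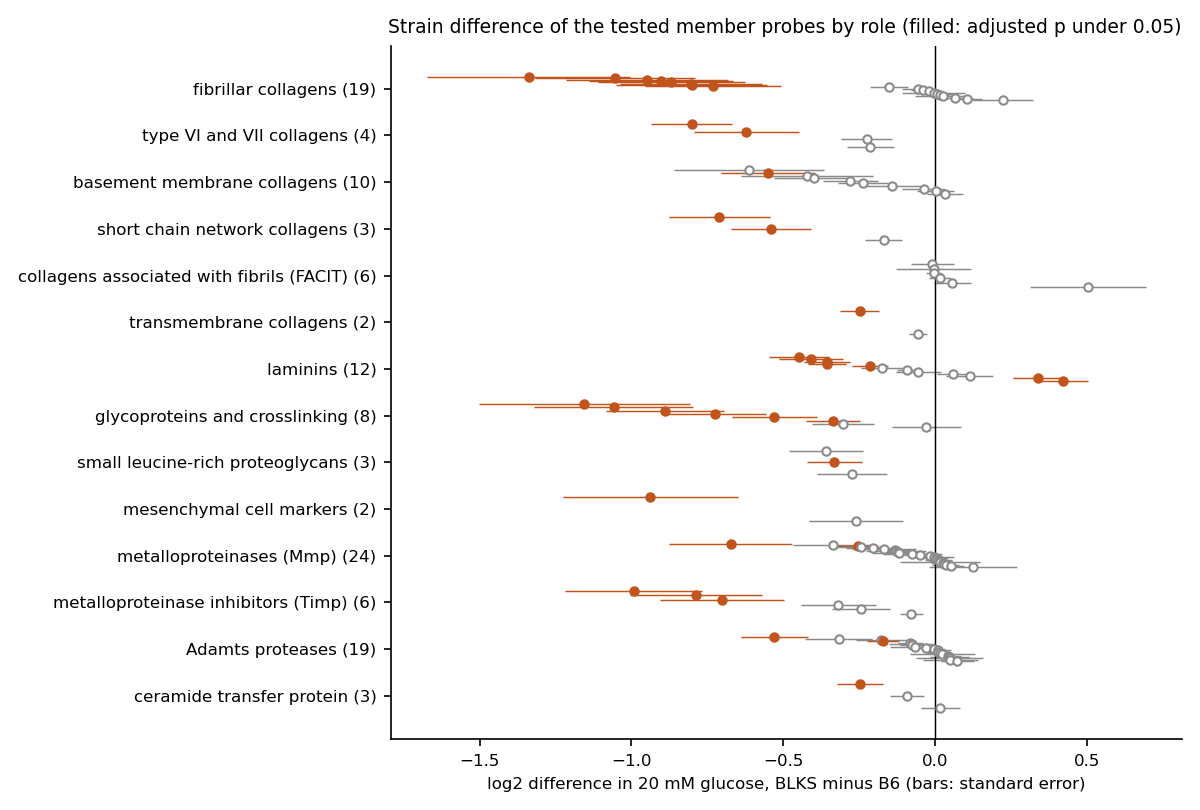
Log2 difference between BLKS and B6 islets in high glucose (x axis, BLKS minus B6) for each of the 121 tested member probes, grouped on the y axis by role. Filled points passed the test (35 lower and 2 higher in BLKS), open grey points did not. Bars give the standard error; outside the laminins, where 2 called points lie to the right of 0, every called point lies to its left, and the fibril-associated (FACIT) collagens have none.

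Fibrillar collagens, the rope-like proteins of interstitial matrix, gave the largest difference. Col1a1 encodes the more abundant chain of type I collagen and has 3 tested probes. The first (A_52_P525107) read 11.07, 9.98, 10.18, 11.31 and 10.43 in the 5 B6 mice and 8.95, 9.85, 8.32 and 9.90 in the 4 BLKS mice. The highest BLKS mouse lay under the lowest B6 mouse. The difference was -1.34 ± 0.33 (log2 ± SE), or 2.53-fold, with an adjusted p of 0.0156 (limma) and an exact 2-sided permutation p of 0.0159, where 0.00794 is the smallest that 5 against 4 mice allow. A second Col1a1 probe (A_51_P377094) was lower by 0.80 ± 0.25 on the log2 scale, with overlapping groups. The third (A_52_P658611) lay between 5.90 and 6.21 in all 19 mice, and its difference was 0.01 ± 0.05.

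Col1a2, the partner chain of type I collagen, read 10.77, 9.86, 10.04, 11.05 and 10.16 in B6 and 9.12, 9.69, 8.64 and 9.84 in BLKS. These groups did not overlap either, although BLKS high glucose 4 lay just under B6 high glucose 2. The difference was -1.05 ± 0.26 (2.08-fold, adjusted p = 0.0162, limma). Col3a1, the type III collagen of pliable tissue, read 10.64, 9.65, 9.48, 10.49 and 9.83 in B6 and 9.0, 9.5, 8.27 and 9.5 in BLKS with probe A_51_P515605, a difference of -0.95 ± 0.27 with groups that overlapped at their edge. Its other probe (A_52_P684242) lay at 6.02 to 6.11 in high glucose, with a difference of -0.02.

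The 3 chains of type V collagen, which sits inside type I fibrils and sets their width, were lower as well, Col5a1 (A_51_P414637) by 0.90, Col5a3 by 0.87 and Col5a2 by 0.80 on the log2 scale. Col2a1 (A_51_P317141), best known from cartilage, was lower by 0.73, whereas its probe A_52_P216436 differed by 0.00. In all, 8 of 19 fibrillar probes were called, all lower in BLKS. The 11 that were not include second probes of Col1a1, Col2a1, Col3a1 and Col5a1, each of which had another probe that was called.

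Type VI collagen forms beaded filaments that tether cells to the interstitial matrix. Its alpha 3 chain gave the smallest adjusted p of all members. Col6a3 read 9.84, 9.34, 9.31, 10.03 and 9.46 in B6 and 8.63, 8.96, 8.59 and 9.0 in BLKS, with no overlap. The difference was -0.80 ± 0.13 (1.74-fold, adjusted p = 0.00182, limma), with an exact 2-sided permutation p of 0.00794, the smallest possible. Col6a1 was lower by 0.62 (adjusted p = 0.027), and Col6a2 differed by -0.22 without passing (adjusted p = 0.0981). Short-chain collagen VIII, a network former of vessel walls, was lower at both Col8a1 probes, by 0.71 and 0.54, with no overlap at either.

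**Figure D2:**
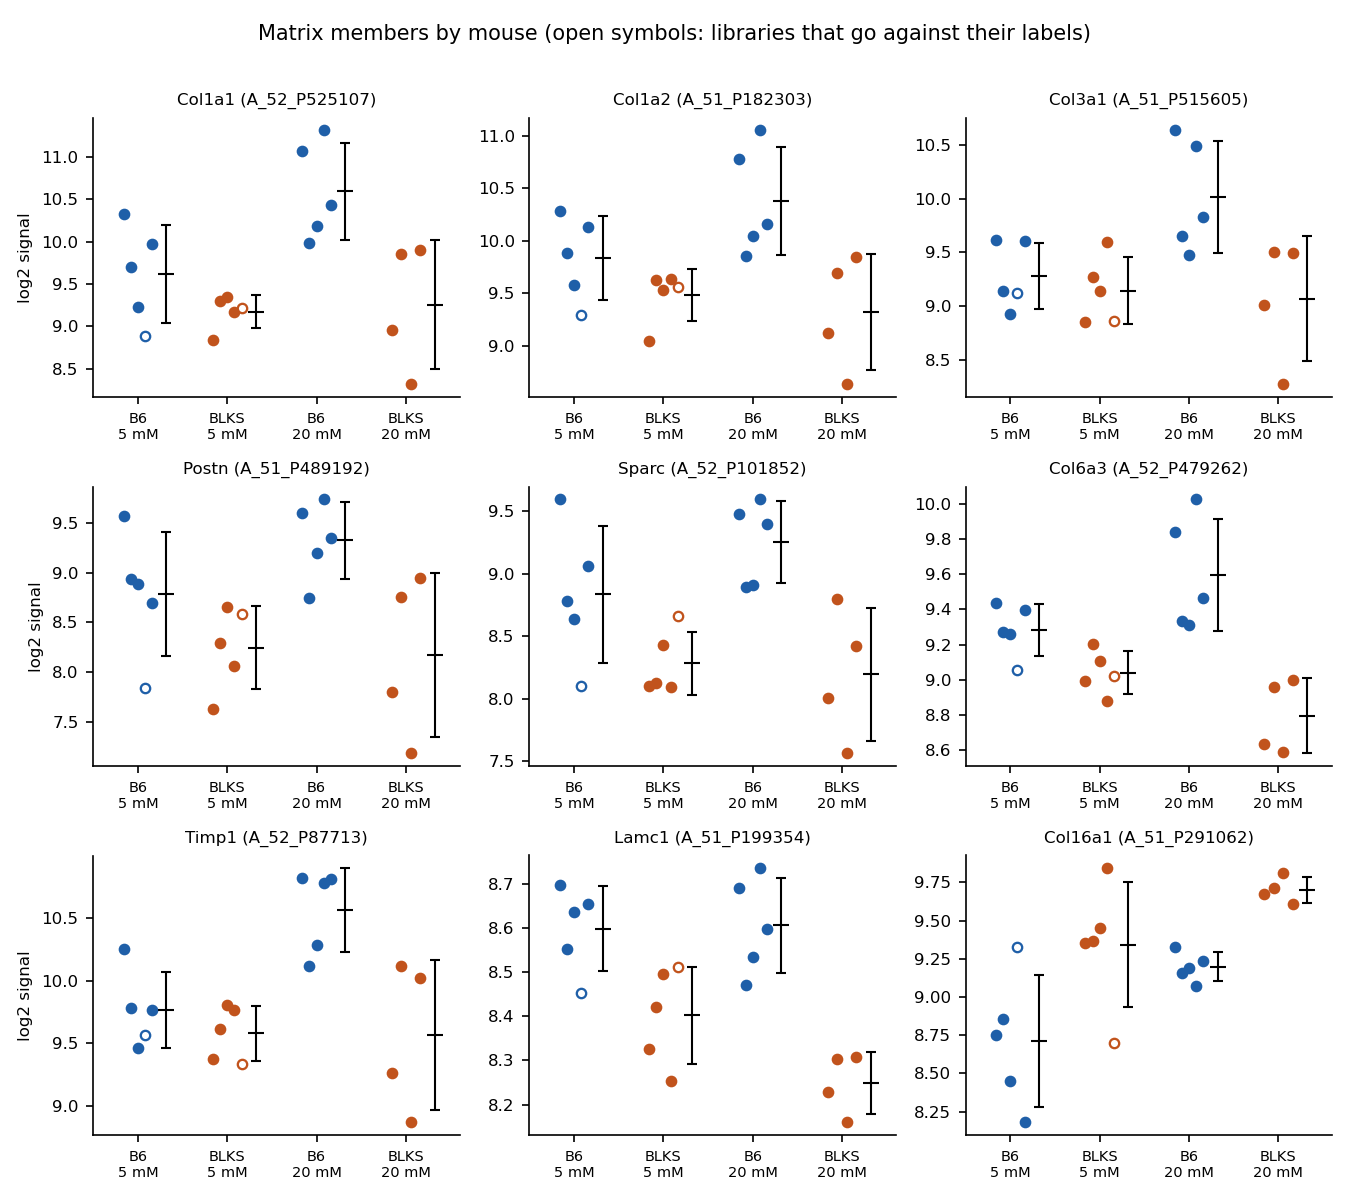
Log2 signal (y axis) of each mouse for 9 matrix probes, in the 4 groups of strain and glucose (x axis); black bars give the mean ± SD and open symbols the 2 libraries that went against their labels. Col6a3, Lamc1 and the Col1a1 probe separate B6 from BLKS in high glucose, and Col16a1 runs the other way, with all BLKS mice above all B6 mice.

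Matricellular and crosslinking proteins differed most as a group. Of 8 tested probes, 6 were called, all lower in BLKS, with a median over the 8 of -0.63. Sparc encodes osteonectin, a collagen-binding protein of remodelling tissue. Its probe A_52_P101852 read 9.48, 8.89, 8.91, 9.60 and 9.40 in B6 and 8.01, 8.80, 7.56 and 8.42 in BLKS, with no overlap and a difference of -1.06 ± 0.26 (adjusted p = 0.0147, limma). The other Sparc probe (A_51_P431087) was lower by 0.89 ± 0.19.

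Postn encodes periostin, which binds collagen and helps to activate lysyl oxidase. It read 9.59, 8.74, 9.20, 9.74 and 9.34 in B6 and 7.80, 8.76, 7.18 and 8.94 in BLKS. Here 2 BLKS mice reached the B6 range and the other 2 lay far below it, so the difference of -1.16 ± 0.35 came with an adjusted p of 0.0388 (limma). Fbn1, the fibrillin of elastic microfibrils, was lower by 0.73 with no overlap at A_51_P467224, and its probe A_52_P224801 differed by -0.30 (adjusted p = 0.0653). Lox, the lysyl oxidase itself, was lower by 0.53. Fibronectin, the adhesive glycoprotein encoded by Fn1, was lower by 0.33 at A_51_P100856, and its second probe A_52_P11817 differed by -0.03 (adjusted p = 0.934).

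Laminins, the cross-shaped trimers of basement membranes, divided. The chains of the broadly used laminins were lower in BLKS: Lamc1 (gamma 1), Lamb1-1 (beta 1, now Lamb1), Lamb2 (beta 2) and 2 of 3 probes of Lama4, the alpha 4 chain of vessel walls. Lamc1 read 8.69, 8.47, 8.53, 8.73 and 8.60 in B6 and 8.23, 8.30, 8.16 and 8.31 in BLKS. The difference of -0.36 ± 0.06 was small, yet no BLKS mouse reached a B6 mouse (adjusted p = 0.00289, limma). Lamb1-1 was lower by 0.45, Lama4 by 0.41 and 0.36, and Lamb2 by 0.21. Lama3, the alpha 3 chain of epithelial laminin, ran the other way at 1 of its probes. A_51_P167489 was higher in BLKS by 0.42 ± 0.08, whereas the other Lama3 probe, A_52_P141739, differed by -0.05. Lama5, the main alpha chain of mature basement membranes, differed by 0.11 (adjusted p = 0.438).

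Type IV collagen, the other scaffold of basement membrane, was less uniform. Col4a1 (A_51_P124254) read 8.97, 8.71, 8.74, 9.21 and 8.99 in B6 and 8.06, 8.71, 8.14 and 8.58 in BLKS, lower by 0.55 ± 0.16 (adjusted p = 0.0288, limma), although the nearest mice of the groups both read 8.71. The second Col4a1 probe (A_52_P518827) had a median of 8.08 in both strains and differed by -0.14 (adjusted p = 0.459). Its head-to-head neighbour Col4a2, whose promoter window is printed above beside that of Col4a1, differed by -0.40 and -0.28 at its 2 probes (adjusted p = 0.0578 and 0.0552). Over both glucose levels these Col4a2 probes passed, at -0.37 and -0.24. Col18a1, the collagen from which endostatin is cut, differed by -0.61 and -0.42 but ranged from 7.81 to 9.28 among BLKS mice at A_51_P191700 and did not pass.

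Among the proteoglycans that coat collagen fibrils, lumican (Lum) was lower by 0.33, while decorin (Dcn) and biglycan (Bgn) gave -0.36 and -0.27 without passing. Vim, the intermediate filament vimentin of mesenchymal and endothelial cells, read 11.84, 11.10, 11.39, 11.79 and 11.46 in B6 and 10.05, 11.16, 9.99 and 11.11 in BLKS (-0.94 ± 0.29, adjusted p = 0.0426, limma). Thy1, a surface protein of fibroblasts, differed by -0.26 (adjusted p = 0.35).

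The share of enzymes called was close to that of all probes (11.1%). Of 24 Mmp probes 2 passed (8.33%), both lower in BLKS: the membrane-bound collagenase Mmp14 (A_51_P216303) by 0.67 and the gelatinase Mmp2, which Mmp14 activates, by 0.25. A second Mmp14 probe (A_52_P304128) differed by -0.13. Of 19 Adamts probes 2 passed (10.5%), both of Adamts2, the proteinase that removes the amino propeptide of fibrillar procollagens; A_51_P227222 was lower by 0.53 ± 0.11 with no overlap and A_51_P164817 by 0.17. The inhibitor Timp1 was lower at all 3 of its probes. At A_52_P87713 it read 10.81, 10.12, 10.28, 10.77 and 10.81 in B6 and 9.26, 10.11, 8.87 and 10.02 in BLKS, a difference of -0.99 ± 0.23 (1.99-fold, adjusted p = 0.00996, limma). Timp2 and Timp3 gave -0.24 and -0.32 without passing, and Timp4 gave -0.08. The gene named Col4a3bp, which is not a collagen but the ceramide transfer protein Cert1, entered by its name, and 1 of its 3 probes was lower by 0.25.

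Col16a1 ran opposite to the interstitial collagens. This fibril-associated collagen read 9.33, 9.16, 9.19, 9.07 and 9.24 in B6 and 9.67, 9.72, 9.81 and 9.61 in BLKS, with no overlap (exact 2-sided permutation p = 0.00794). Its difference of 0.50 had an adjusted p of 0.103 (limma) with all 19 mice, whose spread takes in the 2 libraries against their labels, and 0.00623 without these libraries. Among the 20 member probes with no overlap in this comparison (16.5% of members, against 14.4% of all tested probes), 16 were called.

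The size of the differences followed the mice. Over the 35 probes that were lower, BLKS high glucose 3 was the lowest of the 9 mice at 30 and BLKS high glucose 1 at the other 5, whereas B6 high glucose 4 was the highest at 24 and B6 high glucose 1 at 8. B6 and BLKS mice of the same number shared arrays, and BLKS was below B6 at all 35 probes in pairs 1, 3 and 4 but at 20 of 35 in pair 2. The 35 probes were chosen as lower in BLKS in these same mice, so these orders are a description and no test. Among all 121 tested members, BLKS was below B6 in all 4 pairs at 41 and above it in all 4 at 13. The same was not counted over all tested probes. The pair differences of Timp1 at A_52_P87713 were -1.55, -0.00, -1.41 and -0.76, and those of Col6a3 were -1.21, -0.38, -0.72 and -1.03. Beside the 11 calls without BLKS high glucose 3, the count of 37 became 17 without B6 high glucose 4 (14% against 7.72%), 18 without BLKS high glucose 1 (14.9% against 7.74%) and 19 without B6 high glucose 1 (15.7% against 8.26%). In all, 11 probes passed in every fit that left out 1 mouse, among them Col6a3, Lamc1, Lamb1-1, Fbn1, Timp1 (A_52_P87713), Sparc (A_51_P431087), Lama3 (A_51_P167489), Lama4 (A_52_P7554), Col8a1 (A_52_P282058) and Adamts2 (A_51_P227222). The authors' own log2 table gave 14 calls (11.6%, against 3.19% of all probes). Fixed blocks for array pairs gave 38 (31.4% against 20.0%) and random blocks 59 (48.8% against 25.2%). The linear model of the study's methods gave 60 (49.6% against 22.1%). That model takes both dyes of a mouse as separate values, which exceed the number of mice, so its counts run high.

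Some markers of the cells that make matrix were lower in BLKS too. Of 13 fibroblast and stellate probes, 3 (23.1%, against 6.13% of all probes) were lower in BLKS in high glucose, Pdgfra by 0.26, Acta2 by 0.24 and Fap by 0.18, each at 1 of the gene's tested probes, and none was higher. Pdgfrb differed by -0.41 (adjusted p = 0.0581). The summed fibroblast signal ranged from 2247 to 2676 in B6 and from 1949 to 2324 in BLKS, so that the strains overlapped; Dpt alone of the 11 genes on the array had no probe above background. Endothelial markers were lower at 6 of 15 probes (40%) and higher at none, among them Eng by 0.58, Cdh5 by 0.46 and Vwf by 0.42, with sums of 2577 to 2853 in B6 and 2116 to 2402 in BLKS. The 1 tested mesothelial probe, of Msln, was lower by 2.14. The paper lists Msln in a segment of DBA origin, so it differs from the other markers in being a strain-linked gene there. Its low-glucose signal ran from 218.2 to 2299 in B6 and from 292.4 to 1881 in BLKS as labelled. Upk3b and Wt1, also mesothelial, had no tested probe, so no count of mesothelial cells can be read from this list. Of 12 macrophage probes 1 was called, C1qa, lower by 0.37, and the sums overlapped (1991 to 2257 in B6 and 1975 to 2099 in BLKS). Of 4 duct probes 1 was called, Spp1, higher by 1.80, and of 13 acinar probes 2, both of Ela1, higher by 0.69 and 0.74. The part of these cell types in the matrix differences was not tested, and in RNA of whole islets fewer cells of a type and less RNA per cell cannot be told apart.

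In low glucose no member probe was called between strains, as was true of all 29330 tested probes (0% called); 14 member probes had an unadjusted p under 0.05, and 11.6% of members compare with 16.1% of all probes at that level. The direction was mostly that of high glucose: 100 of the 121 member probes had the same sign at both glucose levels. The same count was not made over all tested probes, so no background stands beside it. Col1a1 (A_52_P525107) read 10.32, 9.70, 9.23, 8.88 and 9.97 in B6 and 8.84, 9.30, 9.35, 9.17 and 9.22 in BLKS, where the 8.88 is the library labelled B6 low glucose 4. The groups overlapped, with a difference of -0.45.

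Without both libraries that went against their labels, 10 member probes were called (8.26%) against 15.6% of all tested probes, 7 lower and 3 higher in BLKS (8.57% and 7.05% of all probes). Col16a1 gave the clearest case. With the labels as given it read 8.75, 8.86, 8.45, 9.33 and 8.18 in B6 and 9.35, 9.37, 9.45, 9.84 and 8.70 in BLKS, where the 9.33 and the 8.70 are the 2 libraries. Its difference was 0.63 with both and 0.94 ± 0.12 without them. Lower without both were Sparc (A_52_P101852) by 0.83, Col4a1 by 0.57, Col8a1 by 0.52, Timp2 by 0.32, Col4a3bp by 0.31, Lamc1 by 0.26 and Col8a2 by 0.21; the matrilysin Mmp7 was higher by 0.41 and the fibrillar Col27a1 by 0.29. Of these 10, 5 were among the 37 of high glucose. With the array pair as a block and all mice kept, 3 member probes were called (2.48%, against 8.04% of all probes), and 8 with a random block (6.61%, against 16.1%). When only B6 low glucose 4 was omitted 6 members were called (4.96% against 9.15%), and 3 when only BLKS low glucose 5 was (2.48% against 8.1%).

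Over both glucose levels together, 47 members were called between strains (38.8%, against 18.7% of all tested probes), 44 lower and 3 higher in BLKS (10.7% and 8.06% of all probes). Without both libraries against their labels 51 were called, against 25.8% of all probes. Among the 3 higher were Col16a1 by 0.57 and Lama3 (A_51_P167489) by 0.28. Lower here but not in high glucose alone were, among others, both Col4a2 probes and Timp2, by 0.21.

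In B6 islets few matrix genes were called for glucose, and the count depended on the processing and the mice included. Of the 121 member probes, 13 were called (10.7%, against 9.53% of all tested probes), a share close to the background. Of these 11 rose and 2 fell (5.41% and 4.12% of all probes), and without both libraries against their labels the count was 12 (12.2% of all probes). Timp1 rose at all 3 probes, by 0.79 ± 0.21, 0.76 ± 0.21 and 0.72 ± 0.19. These probes passed in 13 to 15 of the 19 fits that left out 1 mouse. At A_52_P87713 the low-glucose mice read 10.25, 9.78, 9.47, 9.57 and 9.77 and the high-glucose mice 10.81, 10.12, 10.28, 10.77 and 10.81, so that only B6 low glucose 1 reached the high-glucose range (adjusted p = 0.024, limma). Lox rose by 0.47, Dcn by 0.39, Lum by 0.35, Adamts2 (A_51_P227222) by 0.34, Fn1 (A_51_P100856) by 0.29, the anchoring fibril collagen Col7a1 by 0.29, the gelatinase Mmp9 by 0.27 at A_52_P507214 and Mmp2 by 0.23. Lama3 (A_52_P141739) fell by 0.35 and the transmembrane collagen Col13a1 fell by 0.21.

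Fibrillar collagens did not pass in this comparison. Col1a1 (A_52_P525107) gave 0.97 ± 0.32, the largest value of any member, with an adjusted p of 0.0599 (limma) and an exact 2-sided permutation p of 0.0317, and Col3a1 (A_51_P515605) gave 0.73 (adjusted p = 0.0758). No fibrillar probe of 19 was called. An unadjusted p under 0.05 was found for 7, all with higher values in high glucose, and for 21.3% of all tested probes. Of 13 fibroblast and stellate probes 2 rose in this comparison and none fell, with sums of 1894 to 2387 in low and 2247 to 2676 in high glucose; their part was not tested.

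Each array held mice of 1 glucose level only, except those scanned later, where B6 high glucose 5 ran beside low-glucose B6 RNA. With pairs of arrays treated as random blocks the 13 calls became 3 (2.48%, against 8.27% of all probes). Without scaling between arrays 3 remained (2 up and 1 down, 2.48% against 5.47%), and with the authors' log2 table only 1 (down, 0.826% against 4.13%). Cy5 values alone gave 7 (5.79% against 6.86%), and omitting the arrays scanned later gave 6 (4.96% against 7.81%). The linear model of the study's methods, with both dyes of a mouse as separate values, gave 34 (28.1% against 18.4%). Leaving out B6 low glucose 3, B6 low glucose 5 or B6 high glucose 5 gave 4 calls (3.31%, against 6.56% to 7.37% of all probes). Leaving out B6 low glucose 2 or B6 high glucose 1 gave 5 (4.13%, against 7.88% and 7.45%). Leaving out B6 high glucose 4 gave 8 (6.61% against 8.96%). In all of these leave-out fits Lum, Col7a1 and Lama3 (A_52_P141739) passed.

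In BLKS islets 6 member probes were called for glucose (4.96%, against 11.6% of all tested probes), fewer than the background. Here 2 rose and 4 fell (6.47% and 5.13% of all probes), and without both libraries against their labels the count was again 6 (9.9% of all probes). The Lama3 probe A_51_P167489 rose most; it read 6.33, 6.29, 6.35, 6.56 and 6.19 in low glucose and 6.75, 7.11, 6.60 and 6.92 in high glucose, with no overlap (0.50 ± 0.08, adjusted p = 0.000631, limma). Col14a1, which binds the surface of collagen fibrils, rose by 0.22. Mmp17, a membrane-bound metalloproteinase, read 8.85, 8.91, 8.77, 8.77 and 8.68 in low and 8.52, 8.23, 8.17 and 8.49 in high glucose at A_51_P508770. This probe fell by 0.45 ± 0.10, whereas the other tested Mmp17 probe (A_51_P508775) was not called. Col13a1 fell by 0.27 and Col25a1, another transmembrane collagen, fell by 0.11. The authors' log2 table gave 2 calls, 1 in each direction (1.65%, against 3.4% of all probes).

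The 2 Lama3 probes moved in opposite directions with glucose. A_52_P141739 fell in both strains, by 0.35 in B6 and by 0.38 in BLKS, while A_51_P167489 gave 0.22 in B6 (adjusted p = 0.089) and the rise of 0.50 in BLKS. Both carry the same accession for the alpha 3B form of laminin alpha 3, and their positions along the transcript are not given in the files. Col13a1 was the other member that fell in both strains.

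**Figure D3:**
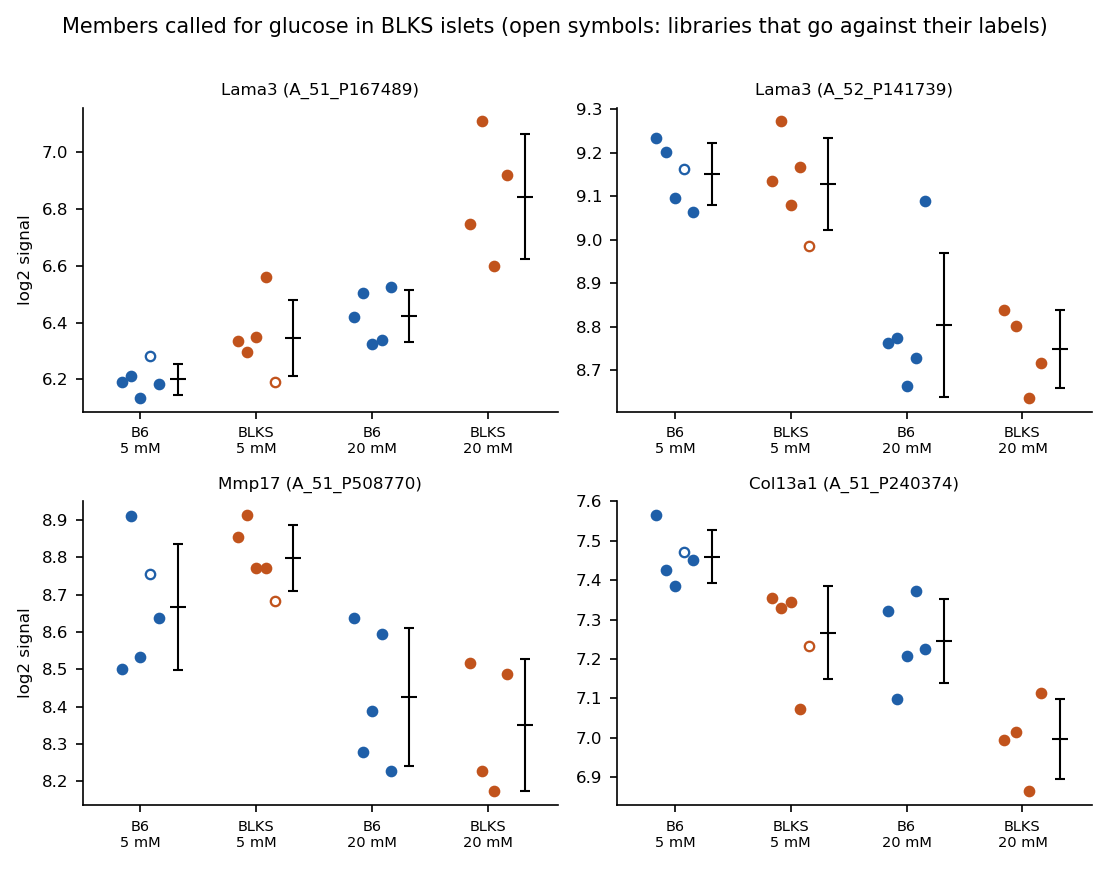
Log2 signal (y axis) of each mouse for both Lama3 probes, the called Mmp17 probe (A_51_P508770) and Col13a1 in the 4 groups (x axis). Black bars give the mean ± SD and open symbols the 2 libraries against their labels. In BLKS the Lama3 probe A_51_P167489 rose by 0.50 while A_52_P141739 fell by 0.38.

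None of the members that rose in B6 passed in BLKS. Timp1 at A_52_P87713 gave -0.01 ± 0.22 in BLKS, Lox 0.08, Lum 0.01, Dcn 0.07 and Fn1 (A_51_P100856) 0.04. The difference between responses was itself tested, and no member probe passed, with or without both libraries against their labels (0.0409% and 0.058% of all tested probes did); 8 members had an unadjusted p under 0.05, 6.61% against 4.42% of all probes. Among these were Col6a3 at -0.56 ± 0.18 (BLKS response minus B6 response), Lum at -0.34, Timp1 (A_52_P87713) at -0.81, Adamts2 (A_51_P227222) at -0.38, Col3a1 (A_51_P515605) at -0.81, Mmp9 (A_52_P507214) at -0.25 and Lama3 (A_51_P167489) at 0.28. The adjusted p of all 8 lay between 0.811 and 1.0. Of the 121 differences 97 were below 0, with a median of -0.06, beside a median of 0.002 over all tested probes. All 121 come from the same mice, so the 97 are not independent counts. The B6 high-glucose mice enter the strain comparison, the B6 glucose comparison and this one, so the 8 probes that were both lower in BLKS and raised in B6 are not independent counts.

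**Figure D4:**
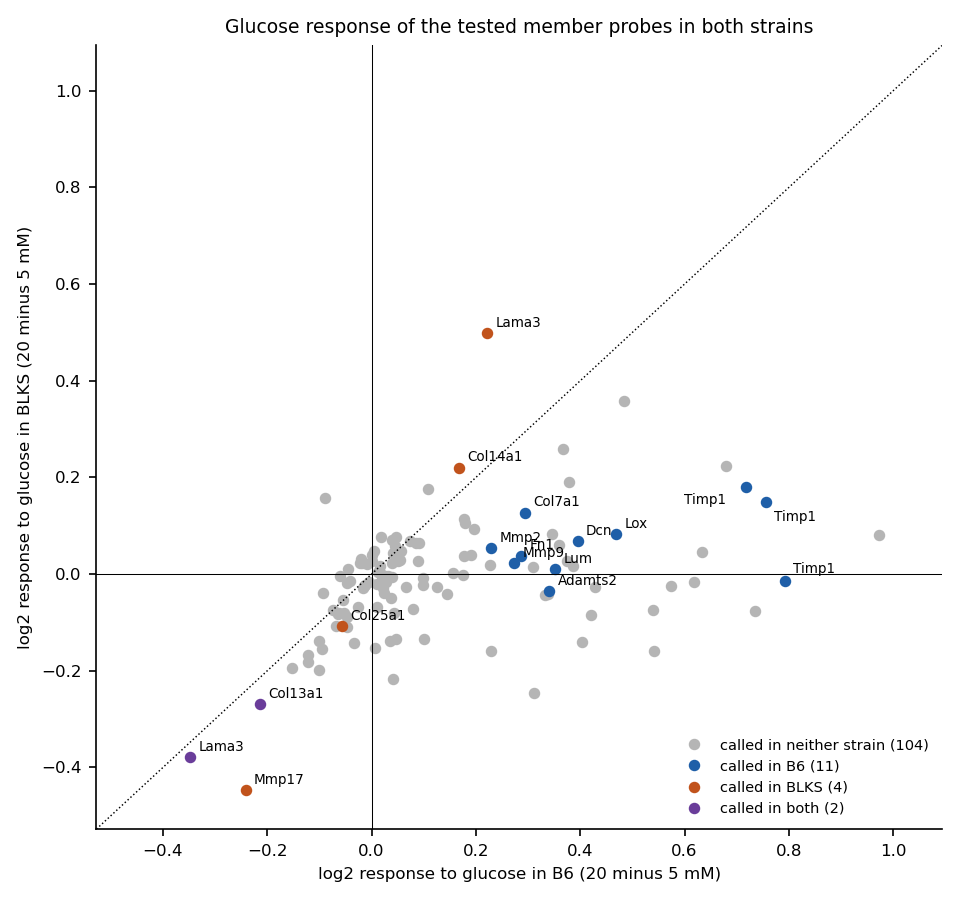
Log2 glucose difference (high minus low) in B6 islets (x axis) against that in BLKS islets (y axis) for the 121 tested member probes; the dotted line marks equal responses, and coloured points passed in B6, in BLKS or in both. The Timp1 probes lie at 0.72 to 0.79 on the x axis and near 0 on the y axis, and most points fall under the dotted line.

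Over both strains 16 members were called for glucose (13.2%, against 22.3% of all tested probes), 10 higher and 6 lower in high glucose (10.8% and 11.5% of all probes), and 13, 6 higher and 7 lower, without both libraries against their labels (21.9% of all probes). Without scaling between arrays the count was 9 (2 higher and 7 lower, 7.44% against 17.8% of all probes). Under both settings falls outnumbered rises. The count was 6 with the authors' log2 table (2 higher and 4 lower, 4.96% against 11.5%) and 7 with a random block for array pairs (5.79% against 13.0%). The linear model of the study's methods, with both dyes of a mouse as separate values, gave 32 (26.4% against 33.6%). Omitting BLKS high glucose 2 gave 9 (7.44% against 18.7%). Omitting BLKS high glucose 4 or B6 low glucose 3 gave 10 (8.26%, against 19.3% and 20.6%).

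Genes that process or bind collagen but lie outside the set gave another pattern. From a list of matrix partners, 108 probes of 79 genes were tested. In high glucose 23 differed between strains (21.3%, against 11.1% of all probes), 16 lower and 7 higher in BLKS (14.8% and 6.48%, against 6.13% and 4.98%), with a median over the list of -0.01. Lower were the hyaluronan receptor Cd44 (by 0.89 and 0.65 at 2 probes), the latent TGF-beta binding protein Ltbp2 (by 0.79), and 2 procollagen chaperones, Serpinh1 (Hsp47, by 0.73) and Fkbp10 (by 0.66). Cd44 separated the strains sharply, from 9.08 to 9.17 in B6 and from 8.16 to 8.32 in BLKS at A_52_P523459.

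With glucose, most of the partners that were called rose. In B6 islets 19 were called (17.6%, against 9.53% of all probes), and 18 of them rose (16.7%, against 5.41%). In BLKS islets 21 were called (19.4%, against 11.6%), and 18 rose (16.7%, against 6.47%). Without both libraries against their labels the counts were 22 with 19 rises in B6 and 21 with 17 rises in BLKS. P4ha1, the catalytic subunit of prolyl 4-hydroxylase, which stabilises the collagen helix, rose at its 2 probes by 0.79 and 0.67 in B6 and by 0.65 and 0.69 in BLKS. Without both libraries the first of these probes (A_51_P458067) gave 0.60 in BLKS and no longer passed (adjusted p = 0.0673, limma). The prolyl isomerase Ppib, which helps collagen to fold, rose by 0.60 in B6 and by 0.65 in BLKS at A_51_P327825. P4ha2 rose by 0.66 in B6, and Emilin1, an elastic fibre protein, by 0.59 in B6 and 0.71 in BLKS. In BLKS Fbln5 and Plat (A_52_P409833) rose by 0.75 and 0.73. Ppib, P4ha2, Emilin1, Fbln5 and this Plat probe passed in these comparisons without both libraries too. No fibrillar collagen probe was called for glucose in BLKS, where Col1a1 (A_52_P525107) gave 0.08 ± 0.33 and Col1a2 -0.16.

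**Figure D5:**
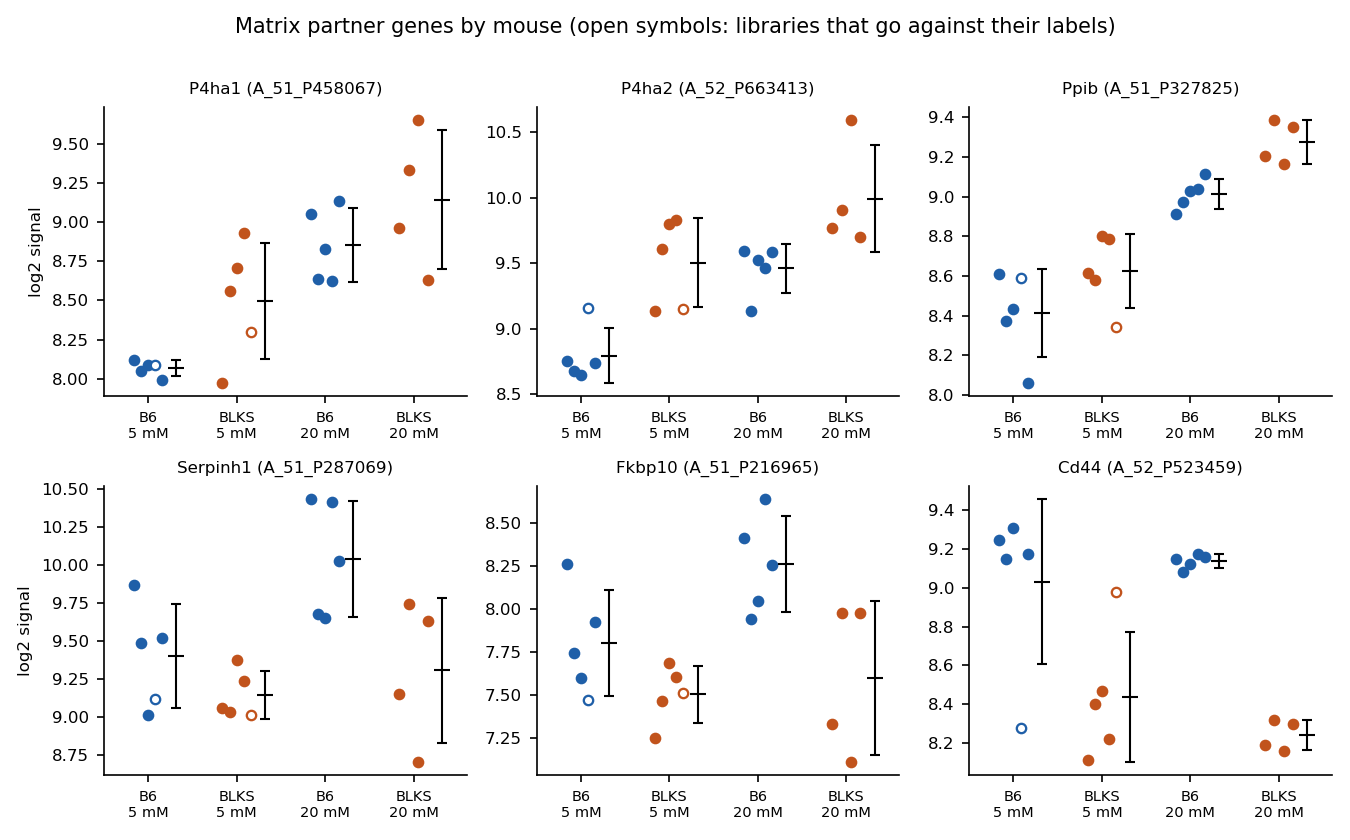
Log2 signal (y axis) of each mouse for 6 matrix partner probes in the 4 groups (x axis); black bars give the mean ± SD and open symbols the 2 libraries against their labels. P4ha1 and Ppib are higher in high glucose in both strains, Serpinh1 and Fkbp10 are lower in BLKS in high glucose, and Cd44 separates the strains, with both open symbols on the side opposite to their label.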

How the data were processed

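Expression was measured in islets of 19 mice on 20 arrays of 2 colours, and groups came from the sample titles. The deposited intensity values are Feature Extraction processed signals, made per the file headers with linear and LOWESS dye normalization and no background subtraction (version 9.5.3.1 in the headers, 8.1 in the submitters' processing notes). The authors also deposited a log2 table, which was checked against the scanner's mean spot signals (log2, both dyes averaged) and served as an alternative. No columns of other series were found (0).

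Control and outlier spots were removed, log2 signals were scaled between arrays (Aquantile), and spots and dyes of a mouse were averaged in R 4.3.3 with limma 3.58.1 and the data.table package (1.17.8). Probes well above background in all channels of at least 4 mice were tested (a median of 83.9% of Cy3 negative controls carry that flag, against 0.318% for Cy5, so Cy5 decides). A model of 4 group means gave all comparisons, with Benjamini-Hochberg adjustment over 29330 probes at 0.05. The fits recovered large planted changes in data simulated with independent mice. That simulation held no array pairs, so it checks the code and not the calls made here. The number of mice limits the precision. Exact permutation tests were 2-sided.

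Same-numbered B6 and BLKS mice of a glucose level shared arrays, per the labels. Their deviations from group means correlated at 0.0217 to 0.705 (median 0.472, against -0.0536 for other pairs of mice), so the array pair was fitted as a block as an alternative. Other alternatives changed background correction, scaling, the filter, dye, scan batch, the mice included and the model.

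Members, gene lists and tests were chosen with earlier results of these data known. Named were a fixed list of 27 matrix genes, the 10 largest called differences per comparison, genes whose probes disagree, and up to 5 called partner probes per comparison; Lamb2, Timp4, Col8a2 and, in the strain comparisons, Col16a1, Mmp7 and Col27a1 were added after their values were seen. RefSeq entries matched all but 2 of 171 probes (132 by accession, 37 by symbol), and 2 were renamed. Some genes of the set may share sequence between probes and paralogs, which was not examined. Some items are not reported here.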

Additional observations from a re-analysis of the deposited data

Results flagged for a closer look

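Among 352 groups of 4 or 5 mice at called or named member probes, 11 held a mouse far from the others (3.12%; chance gives about 1 in 20), and 6 of them belong to probes named here. Col1a2 (A_51_P182303) was lowest in BLKS low glucose 1 at 9.049, and Col14a1 (A_51_P326529) was lowest in the same mouse at 6.11. Lum (A_51_P167527) was highest in B6 low glucose 1 at 6.707 within its group. The Lama3 probe A_52_P141739 was highest in B6 high glucose 5 at 9.089, the only B6 high-glucose mouse within the low-glucose range. The Col1a1 probe A_52_P658611, which passed no test, was highest in B6 high glucose 4 at 6.213 and in BLKS high glucose 4 at 6.161.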

How the results depend on the processing

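No called member difference changed sign under any alternative: of 3808 values of called probes, 3201 kept their call, 607 lost it and 0 reversed. Counts of called members for strain in high glucose, strain in low glucose, glucose in B6, glucose in BLKS and glucose over both strains were 37, 0, 13, 6 and 16. Without scaling between arrays the glucose counts were 3 (B6) and 9 (both strains). The authors' log2 table, which differs both in being unscaled and in holding mean instead of processed signals, gave 1, 2 (BLKS) and 6, with 14 for strain in high glucose. With the replicate block (array pair), strain in low glucose gave 3; as a random replicate block the pair gave 59 for strain in high and 8 in low glucose, 3 for glucose in B6 and 7 over both strains. Cy5 values alone gave 7 for glucose in B6, Cy3 values alone 3 for strain in low glucose, and leaving out the later-scanned arrays 6 for glucose in B6. Without both libraries against their labels, strain in low glucose gave 10. The linear model of the study's methods, which takes both dyes of a mouse as separate values, gave 60, 7, 34 and 32, without a change past 1.5 times for glucose in BLKS. Leaving out 1 mouse gave 11 to 43 for strain in high glucose, 0 to 6 in low glucose, 35 to 51 over both levels, 4 to 18 for glucose in B6, 4 to 7 in BLKS, 9 to 23 over both strains, and 0 for the interaction. Over all tested probes the share called for strain in high glucose moved too, from 11.1% to 3.19% (authors' log2 table) and 25.2% (random block). The cause of these shifts was not tested. Normexp correction, quantile normalization, either filter and high-glucose mice alone moved no count past 1.5 times. A fixed block has no glucose value, since each pair holds 1 glucose level. Members near a log2 level of 6 carry mostly background signal, which limits what their folds show.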
